A study of Mus musculus with 12 samples.

Results

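The genes described here serve arginine uptake and use, and the alternative activation of macrophages. They were chosen by name from a list of 10, of which 8 were analysed here among the 13232 genes of the table: *Slc7a2*, *Mgl2*, *Clec10a*, *Chil3*, *Il4ra*, *Stat6*, *Il10ra* and *Odc1*. RNA was sequenced from bone marrow-derived macrophages, cells grown from the marrow of wild-type (WT) C57B6/J mice with the growth factor M-CSF at 20 ng/ml. The donor mice were on either a high-fat diet (HFD) or a normal diet (ND), and cultures of both kinds were moved to serum-free medium on day 4 and held at 1% oxygen for 1 h on day 7. There were 3 libraries per diet, with an estimated 19046400 to 24491500 reads counted to the genes of the table. Another 6 libraries, of both diets at normal oxygen, were not analysed here, so the values compare diets under hypoxia and do not show a response to hypoxia. The labels give no age or sex and do not say whether each library came from its own mouse, so p-values measure the spread between these libraries, which may in part be technical.

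Alternative activation is the state that macrophages enter under IL-4 or IL-13. These cytokines bind a receptor built on IL4RA, and the receptor's kinases phosphorylate STAT6, which enters the nucleus and switches on genes such as *Chil3* and the sugar-binding lectins *Mgl2* and *Clec10a*. Arginine enters the cell through cationic transporters such as SLC7A2, and ornithine decarboxylase, encoded by *Odc1*, starts the synthesis of polyamines from ornithine, which is made from arginine. IL10RA is the ligand-binding chain of the receptor for IL-10, a cytokine that restrains inflammatory genes through STAT3. The cultures carried macrophage markers: 10 of 10 chosen for this check, among them *Csf1r* and *Adgre1*, had levels of 2095 to 267500, while 0 of 9 dendritic cell markers and 0 of 7 erythroid markers had a row in the table. Of markers of other cells, 6 of 12 for neutrophils, 3 of 8 for stroma, 2 of 10 for eosinophils, basophils and mast cells and 1 of 9 for lymphocytes had a row.

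Levels are the deposited values, gene counts scaled by a size factor per library. Of the 8 genes, 0 passed the test for a difference between diets (limma on log2(level + 1) with Benjamini-Hochberg adjustment over all 13232 genes, threshold 0.05), against 0% of all genes. At an unadjusted p under 0.05 there was 1, *Clec10a*, against 10.6% of all genes (5.18% for lower in HFD, its direction). The ND and HFD values overlapped for all 8, whereas they did not overlap for 14.5% of all genes (HFD above ND for 7.44%, below for 7.07%). ND replicate 3 stood apart, since without it 1.76% of all genes passed, but 0 of the 8. The mean was higher in HFD for 4 and lower for 4, with a median log2 fold change of -0.00042, against -0.0034 over all genes. Counts of reads in bulk RNA cannot tell apart fewer cells of a type from less RNA per cell.

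**Figure D1:**
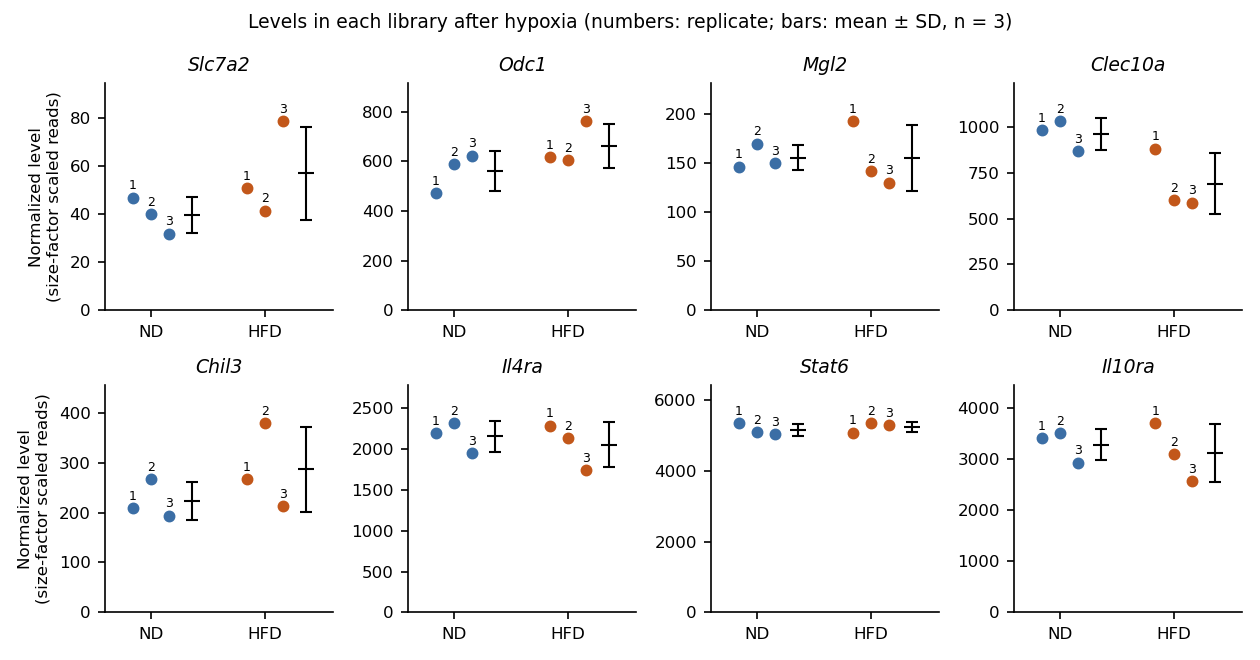
Level of each gene (vertical axis, size-factor scaled reads, from 0) in the 3 ND libraries (blue) and 3 HFD libraries (orange), numbered by replicate, with mean ± SD beside them. For *Clec10a*, HFD replicates 2 and 3 lie below every ND library and HFD replicate 1 lies among them. *Stat6* spans only 5021 to 5339.

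*Slc7a2* encodes the cationic amino acid transporter through which activated macrophages take up arginine (GRCm38 chr8:40862396-40922308, plus strand, up to 12 exons). Its level was 46.9, 40.1 and 31.9 for ND in replicate order and 50.9, 41.5 and 79.0 for HFD. HFD replicate 3 was the highest library, and the other HFD values lay within or just above the ND range. Mean levels were 39.6 ± 7.52 for ND against 57.1 ± 19.5 for HFD (SD over 3 libraries), a log2 fold change of 0.48 (95% interval -0.125 to 1.09, limma adjusted p 0.586). It was 0.23 without HFD replicate 3, 0.68 without HFD replicate 2 and 0.13 with limma array weights, which weight each library by how far it scatters. The gene rested on about 27 to 87 reads per library, so counting error alone reached 19.2% of a value. Of its 75-base windows, the length of a read, 5.40% also occur on the opposite strand in *Gm26584*, a long noncoding RNA that overlaps it.

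*Odc1* encodes ornithine decarboxylase, the rate-limiting enzyme of polyamine synthesis (chr12:17544794-17551505, plus strand, up to 12 exons). Its level was 472, 589 and 623 in ND and 618, 604 and 764 in HFD. The lowest library was ND replicate 1 and the highest HFD replicate 3, with the other 4 lying close together between them. The means were 562 ± 79.2 and 662 ± 88.4 (SD, n = 3), a log2 fold change of 0.24 (95% interval -0.039 to 0.52, limma adjusted p 0.551). It was 0.12 without ND replicate 1 and 0.13 without HFD replicate 3. Of its 75-base windows 16.6% recur in other annotated genes, so its count depends on how the authors placed shared reads. The 2 arginine genes with a row thus had their highest value in the same library, HFD replicate 3.

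*Clec10a* and *Mgl2* encode neighbouring C-type lectins that bind galactose and N-acetylgalactosamine on glycoproteins, and both are widely used as markers of macrophages and dendritic cells exposed to IL-4. *Mgl2* lies at chr11:70130329-70137550 and *Clec10a* at chr11:70156197-70170834, on the same strand and 18646 bases apart, with no annotated gene between them in GENCODE M21. Their coding sequences are alike enough to matter for counting, so the longest stretch they share is shown. It is 183 bases long and lies in exons 7 to 9 of 10 in each gene, at chr11:70136337-70136699 in *Mgl2* and chr11:70169822-70170189 in *Clec10a*. Capitals mark the shared stretch, spliced and read 5′ to 3′, and lower case the 30 coding bases on either side:
Mgl2: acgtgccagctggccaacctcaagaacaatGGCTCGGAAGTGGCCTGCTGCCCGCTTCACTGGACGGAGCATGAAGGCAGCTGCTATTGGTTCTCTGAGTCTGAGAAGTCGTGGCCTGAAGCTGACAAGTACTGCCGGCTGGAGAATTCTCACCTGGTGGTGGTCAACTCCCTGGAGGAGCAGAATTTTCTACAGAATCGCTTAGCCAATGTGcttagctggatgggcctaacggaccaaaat
Clec10a: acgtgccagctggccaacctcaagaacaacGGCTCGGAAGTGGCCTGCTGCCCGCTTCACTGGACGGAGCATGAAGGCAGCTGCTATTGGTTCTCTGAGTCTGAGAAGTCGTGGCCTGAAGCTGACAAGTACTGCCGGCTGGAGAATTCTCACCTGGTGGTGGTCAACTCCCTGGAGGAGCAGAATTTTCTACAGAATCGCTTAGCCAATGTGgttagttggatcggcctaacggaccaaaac
A 75-base read that falls wholly inside the capitals cannot be assigned to one gene by its sequence. Counting all positions of all transcripts, inside this stretch and outside it, 148 windows of 75 bases are shared. These are 6.56% of the windows of *Mgl2* and 4.44% of those of *Clec10a*.

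With all 6 libraries at equal weight, *Clec10a* had the smallest p of the 8 genes, and a difference close in size to that of *Slc7a2*. *Slc7a2* had the larger value in some other settings, such as 0.52 against -0.50 after quantile normalization and 0.68 against -0.41 without HFD replicate 2. The level of *Clec10a* was 982, 1033 and 866 in ND and 881, 602 and 587 in HFD. HFD replicates 2 and 3 lay below every ND library, while HFD replicate 1 lay just above ND replicate 3, so the diets overlapped. The means were 961 ± 85.5 and 690 ± 166 (SD, n = 3), a log2 fold change of -0.50 (SE 0.15, 95% interval -0.82 to -0.17). The unadjusted p was 0.00675, and after adjustment over all genes it did not pass (limma adjusted p 0.297). It passed with limma array weights (-0.61, limma adjusted p 0.0152), a setting under which 8.56% of all genes passed and in which HFD replicate 2 weighed most (3.09) and ND replicate 3 least (0.441). The alternatives gave *Clec10a* a limma adjusted p between 0.0152 and 0.886.

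*Mgl2* had nearly equal means. Its level was 147, 170 and 150 in ND and 193, 142 and 130 in HFD. HFD libraries were both the highest and the 2 lowest, on either side of the ND range. The means were 156 ± 12.7 and 155 ± 33.5 (SD, n = 3), a log2 fold change of -0.022 (95% interval -0.375 to 0.331, limma adjusted p 0.976). The sign turned in the fits without ND replicate 2, HFD replicate 2 or HFD replicate 3, to at most 0.094.

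Set against each other within a library, which removes the size factor, the ratio of the lectins did not overlap between the diets. *Mgl2* stood at 14.9%, 16.5% and 17.3% of *Clec10a* for the ND libraries in replicate order and at 21.9%, 23.6% and 22.2% for the HFD libraries. Every HFD library was above every ND library. The same held for 36.1% of the ratios of the 13231 other genes to *Clec10a*, whose median log2 difference was 0.50, so the separation was not particular to *Mgl2* and was about the size of the difference in *Clec10a* itself. Mean ratios were 16.3% ± 1.22 for ND against 22.6% ± 0.917 for HFD (SD, n = 3), which is a log2 difference of 0.48 (SE 0.071). The exact two-sided permutation test over the 6 libraries gave p = 0.1, the smallest that 20 assignments allow, so this test cannot reach 0.05 with 3 libraries per diet. Of 2 ratios planned, this 1 was computed. Without any 1 library the difference ran from 0.418 to 0.525. The part that reads matching both genes play in the ratio was not tested.

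**Figure D2:**
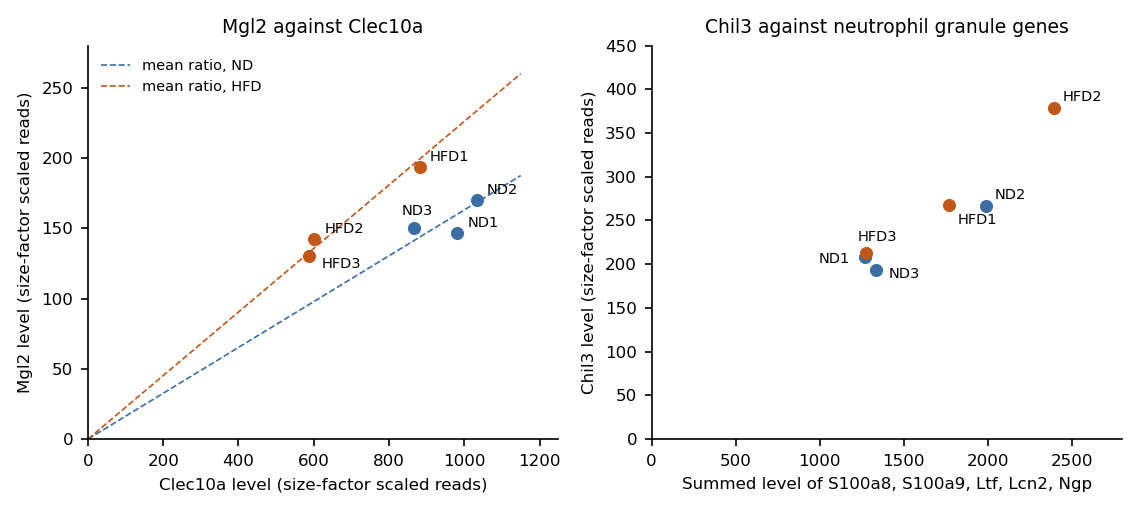
Left, *Mgl2* against *Clec10a* level in each library (ND blue, HFD orange), with dashed lines at the mean ratio of each diet. Right, *Chil3* level against the summed level of 5 neutrophil granule genes. All axes are size-factor scaled reads from 0. On the left the HFD libraries lie along a steeper line (22.6%) than the ND libraries (16.3%), and on the right the libraries of both diets lie near 1 line.

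Of 10793 other genes with a mean level of 100 or more, the 3 whose centred log2 levels over the 6 libraries lay nearest to *Clec10a* were *Per3*, *Cenpa* and *Ralgps2*, at root mean square differences of 0.053, 0.080 and 0.082. *Clec10a* was the reference for this search because its difference was the largest in size, as reported above, among the members with a mean level of 100 or more, which leaves out *Slc7a2*. The difference of *Chil3* was larger without HFD replicate 3 (0.52 against -0.40) and without ND replicate 2 (0.47 against -0.44). *Per3* encodes a component of the circadian clock, and *Cenpa* the histone H3 variant of centromeres. *Cenpa* was at 1832, 1893 and 1549 in ND and 1441, 1140 and 1143 in HFD, without overlap (log2 fold change -0.51, limma adjusted p 0.197; without ND replicate 3 it passed, at -0.59). *Per3* repeated the order of *Clec10a* in every library, with 402, 411 and 358 in ND and 364, 269 and 248 in HFD. The 3 genes were picked for their likeness to *Clec10a* in these libraries. A shared order and similar fold changes thus follow from the choice.

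*Chil3* encodes Ym1, a chitinase-like secreted protein induced by IL-4 in macrophages and also abundant in developing neutrophils (chr3:106147554-106167564, minus strand, up to 11 exons). Its level was 209, 267 and 194 in ND and 267, 379 and 212 in HFD. HFD replicate 2 was the highest library, HFD replicate 1 matched ND replicate 2, and HFD replicate 3 lay beside ND replicate 1. The means were 223 ± 38.7 and 286 ± 84.9 (SD, n = 3), a log2 fold change of 0.33 (95% interval -0.12 to 0.78, limma adjusted p 0.610). It was 0.11 without HFD replicate 2 and 0.52 without HFD replicate 3, and with array weights 0.58 (limma adjusted p 0.0676). Of its 75-base windows 13.0% recur in *Chil4* or *Gm6522*, which have no row in the table.

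Neutrophil markers were high and low in much the same libraries as *Chil3*. Of 12 such markers 6 had a row, *S100a8*, *S100a9*, *Ltf*, *Lcn2*, *Ngp* and *Mmp8*, and all 6 had a higher mean in HFD (median log2 fold change 0.30), with 0 passing the test. *Elane*, *Mpo*, *Camp*, *Retnlg*, *Ly6g* and *Cxcr2* had no row. The summed level of the 6 was 1712 to 2455 in ND and 2109 to 3430 in HFD. Leaving out *Mmp8*, the only one without overlap of the diets, the sum of the other 5 was 1269, 1993 and 1337 in ND and 1770, 2398 and 1276 in HFD. *Chil3* came to 16.4%, 13.4% and 14.5% of that sum in ND and 15.1%, 15.8% and 16.7% in HFD. Between its highest and lowest library *Chil3* differed by 1.96-fold, the sum by 1.89-fold and the ratio by 1.24-fold. Relative to the 5 markers, the log2 difference of *Chil3* between diets was 0.11, and with *Mmp8* in the sum it was -0.085. Without 1 library the first value ran between 0.038, with ND replicate 2 left out, and 0.19, with ND replicate 1 left out, so its size depended on single libraries. The ratio was chosen after the values were seen, and the part of neutrophil-lineage cells in the *Chil3* values was not tested.

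The stretch before the *Chil3* start site is shown because the gene is known to be switched on both by IL-4 and in the neutrophil lineage. It is the 250 bases up to the start site, read 5′ to 3′ on the minus strand, at GRCm38.p6 chr3:106167565-106167814 as RefSeq gives it, with matches to 2 short motifs in capitals:
Chil3: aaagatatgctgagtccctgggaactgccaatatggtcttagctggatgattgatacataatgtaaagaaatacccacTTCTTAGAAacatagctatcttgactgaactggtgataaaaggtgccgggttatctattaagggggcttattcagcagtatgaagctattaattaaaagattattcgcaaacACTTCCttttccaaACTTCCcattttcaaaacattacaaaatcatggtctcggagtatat
The first run of capitals matches TTCNNNGAA, a motif of STAT factors found in 7.02% of the 32851 RefSeq promoters over the same length. The others match GGAAGT, read on either strand, a motif of ETS factors such as PU.1 found in 19.7%. The STAT6 motif, TTC and GAA parted by any NNNN (5.85% of promoters), and the C/EBP motif TTGCNNAA (9.56%) had no match in this window. Promoters were held for 5 of the 8 genes, *Chil3*, *Mgl2*, *Il4ra*, *Stat6* and *Odc1*. None of the 5 windows of 250 bases held the STAT6 motif, TTGCNNAA or the E-box CACGTG (6.02% of promoters). Only 18 bases of the *Mgl2* window, 99 of *Il4ra*, 171 of *Odc1* and 219 of *Stat6* lie before the earliest annotated start. Bases further upstream of these genes were not searched. The hypoxia-response core GCGTG (28.2%) occurred 3 times before *Odc1* and once in the *Il4ra* window, there downstream of the earliest start in GENCODE M21, and its other form ACGTG (16.6%), which the E-box contains, once before *Stat6*. These letters are descriptions of the sequence and say nothing of binding.

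The signalling genes were the most abundant of the set per length of exon, with log2 fold changes from -0.083 to 0.021. *Stat6*, the transcription factor downstream of IL-4 and IL-13 (chr10:127642986-127660957, plus strand, up to 22 exons), was at 5339, 5092 and 5021 in ND and 5067, 5337 and 5273 in HFD. Libraries of both diets were mixed in order, and the highest was 1.06-fold above the lowest. The means were 5151 ± 167 and 5225 ± 141 (SD, n = 3), a log2 fold change of 0.021 (limma adjusted p 0.929). Its 95% interval ran from -0.11 to 0.15, the narrowest of the 8, and the value from 0.0027 to 0.047 without 1 library. *Nab2* overlaps *Stat6* on the opposite strand, and the strand setting of the counting is not given in the sources used here.

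*Il4ra*, the shared receptor chain for IL-4 and IL-13 (chr7:125552120-125579474, plus strand, up to 12 exons), was at 2196, 2316 and 1951 in ND and 2286, 2132 and 1744 in HFD. The lowest value was in HFD replicate 3 and the next lowest in ND replicate 3. The log2 fold change was -0.075 (95% interval -0.31 to 0.16, limma adjusted p 0.848). *Il10ra* (chr9:45253837-45269149, minus strand, up to 7 exons) was at 3404, 3505 and 2924 in ND and 3697, 3089 and 2567 in HFD, with a log2 fold change of -0.083 (95% interval -0.36 to 0.19, limma adjusted p 0.856). For both receptors ND replicates 1 and 2 and HFD replicate 1 were the 3 highest libraries, followed in order by HFD replicate 2, ND replicate 3 and HFD replicate 3. *Csf1r*, the receptor for M-CSF, was picked after its values were seen. It had the same 3 libraries on top and the same lower order, at 54010, 53700 and 46360 in ND and 55140, 49490 and 44320 in HFD. The sign of both receptors turned without HFD replicate 3, to 0.039 for *Il4ra* and 0.049 for *Il10ra*.

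Among the 8 genes, HFD replicate 3 was the lowest library for 4, *Mgl2*, *Clec10a*, *Il4ra* and *Il10ra*, and the highest for *Slc7a2* and *Odc1*. ND replicate 3 was the lowest for 3, *Slc7a2*, *Chil3* and *Stat6*, and the highest for none. ND replicate 2 and HFD replicates 1 and 2 were lowest for none. The membrane lectins and cytokine receptors thus shared their lowest library, while the transporter and the polyamine enzyme shared their highest.

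**Figure D3:**
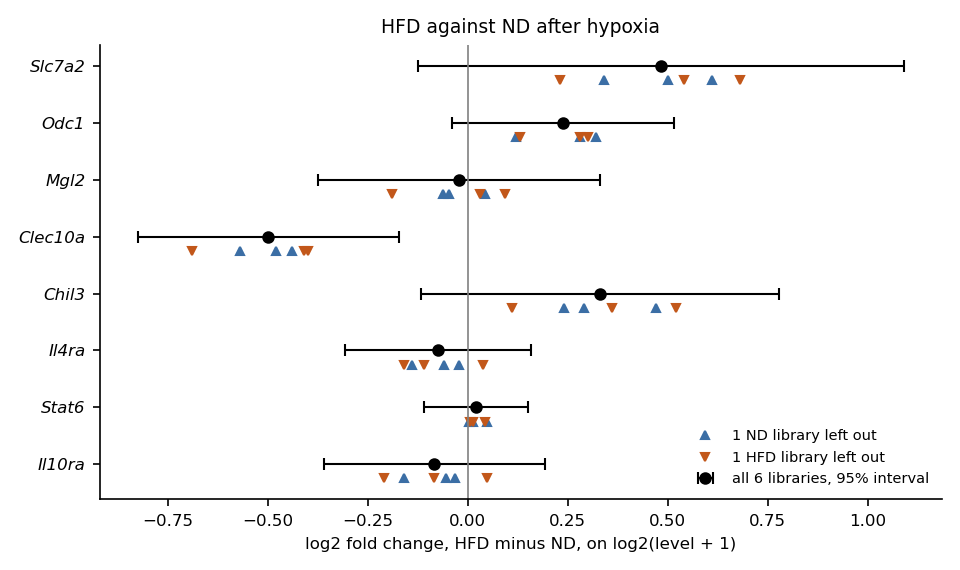
Log2 fold change (horizontal axis, HFD minus ND on log2(level + 1)) of each gene, black points with 95% intervals from limma, and below each the value without 1 ND library (blue) or 1 HFD library (orange). Only the interval of *Clec10a* lies wholly on 1 side of 0, before adjustment over all genes, and the points for *Mgl2*, *Il4ra* and *Il10ra* lie on both sides.

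Per kilobase of exon, the levels in ND fell into the order *Stat6* (1170 ± 37.9), *Il10ra* (937 ± 88.6), *Il4ra* (359 ± 31.0), *Clec10a* (331 ± 29.5), *Odc1* (165 ± 23.3), *Chil3* (137 ± 23.7), *Mgl2* (74.4 ± 6.06) and *Slc7a2* (4.34 ± 0.823, SD, n = 3). *Il4ra* and *Clec10a* were within their spread of each other, as were *Odc1* and *Chil3*. In HFD the order was the same, with *Clec10a* at 238 ± 57.3, *Odc1* at 194 ± 26.0 and *Chil3* at 175 ± 52.0 (SD, n = 3), neighbours whose spreads overlapped. Lengths are all annotated exons of a gene merged in GENCODE M21, so genes with long or rarely used exons are placed too low.

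Of 27 other genes of arginine and polyamine metabolism, 24 had a row and 0 passed the test, while *Nos2*, *Pycr1* and *Agmat* were not analysed here. At an unadjusted p under 0.05 there were 3 (12.5%, against 10.6% of all genes), 17 had a higher and 7 a lower mean in HFD, and the log2 fold changes ran from -0.42 to 0.30. Their median was 0.058, and the median of their absolute values 0.11 against 0.092 over all genes. *Ass1* and *Asl*, which rebuild arginine from citrulline, had log2 fold changes of 0.23 and -0.018, and *Ass1* was low, at 17.7 to 33.4. The transporter genes *Slc7a1* (0.20) and *Slc3a2* (0.057), the antizyme *Oaz1* (-0.042), which marks ornithine decarboxylase for destruction, and its inhibitor *Azin1* (0.093) had limma adjusted p-values of 0.752 to 0.876. Without HFD replicate 3 *Slc7a1* was at 0.0087 and *Azin1* at 0.027, and over all fits without 1 library they reached 0.38 and 0.17. The polyamine synthesis genes *Amd1* (0.088), *Srm* (0.13) and *Sms* (0.0058), the acetylating enzyme *Sat1* (-0.17) and the ornithine aminotransferase *Oat* (0.014) had limma adjusted p-values of 0.576 to 0.990. Without 1 library *Sat1* ran from -0.24 to -0.080, the latter without HFD replicate 3. The 3 with an unadjusted p under 0.05, chosen after their values were seen, were *Gatm*, *Eif5a* and *Paox*. *Gatm*, which joins arginine to glycine on the way to creatine, was at 1232, 1145 and 1124 in ND and 1018, 901 and 945 in HFD, without overlap (log2 fold change -0.29, limma adjusted p 0.266). *Eif5a*, the translation factor that carries a polyamine-derived modification, had means of 6498 ± 762 and 7983 ± 634 (SD, n = 3), with a log2 fold change of 0.30 (limma adjusted p 0.318), and passed without ND replicate 3 (0.39). *Paox*, a polyamine oxidase, had -0.42 (limma adjusted p 0.448), and -0.22 without HFD replicate 3. *Prmt1*, an arginine methyltransferase, was the other gene without overlap, at 0.17 (limma adjusted p 0.552), and at 0.11 without ND replicate 2. These 2 were 8.33% of the list, against 14.5% of all genes.

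Of 26 other genes of IL-4, IL-13 and IL-10 signalling, 21 had a row and 0 passed the test. *Socs1*, *Socs2*, *Cish*, *Il4* and *Il13* were not analysed here. The median log2 fold change was -0.0045, and 2 genes (9.52%, against 10.6% of all genes) had an unadjusted p under 0.05, so the count was near the background. The partner receptor chains *Il13ra1* (-0.021), *Il2rg* (0.060) and *Il10rb* (-0.053) and the kinase *Jak1* (-0.012) had limma adjusted p-values of 0.812 to 0.973. Without 1 library *Il2rg* ran from 0.0028 to 0.14 and *Il10rb* from -0.10 to -0.022. *Stat3* (-0.056), the transcription factor downstream of IL-10, and the feedback inhibitor *Socs3* (-0.25, at 20.0 to 49.9) had limma adjusted p-values of 0.837 and 0.853. *Il10* itself was low, at 68.9 to 112 (0.12, limma adjusted p 0.865). The 2 genes, *Shc1* and *Pik3ap1*, were named after their values were seen. *Shc1*, an adaptor of receptor signalling, was at 1413, 1392 and 1551 in ND and 1674, 1806 and 1777 in HFD (log2 fold change 0.27, limma adjusted p 0.260), and passed without ND replicate 3 (0.32). *Pik3ap1*, an adaptor for PI3 kinase, had 0.20 (limma adjusted p 0.370). Neither gene's ND and HFD values overlapped, nor did those of the kinase *Jak3* (-0.14, limma adjusted p 0.587, and -0.077 without HFD replicate 3). These 3 were 14.3% of the list, near the 14.5% of all genes.

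The other alternative activation genes had an unadjusted p under 0.05 more often than all genes, in both directions. Their list was chosen with earlier results of these data known, so its shares are not evidence on the pathway. Of 30 listed, 18 had a row and 12 were not analysed here, among them *Retnla*, *Chil4*, *Ccl17*, *Ccl22* and *Ccl24*. None of the 18 passed the test. At an unadjusted p under 0.05 there were 7 (38.9%, against 10.6% of all genes), 5 higher and 2 lower in HFD (5.4% and 5.18% of all genes). The diets did not overlap for 5 (27.8%, against 14.5%), 4 with HFD above ND and 1 below (7.44% and 7.07% of all genes). The 7 became 4 without HFD replicate 2, a setting in which the count over all genes fell from 1401 to 726, and 8 without ND replicate 3, in which it was 2309. The list's median log2 fold change was 0.095. *Irf4*, a transcription factor required for much of the IL-4 programme, was at 298, 252 and 218 in ND and 206, 160 and 204 in HFD, each HFD library below each ND library (log2 fold change -0.43, limma adjusted p 0.353). *Egr2*, a transcription factor also induced by IL-4, was at 1316, 1280 and 2116 in ND and 2052, 2778 and 2475 in HFD (0.66, limma adjusted p 0.284). ND replicate 3 sat among the HFD libraries for *Egr2*, and without it the gene passed (0.90, limma adjusted p 0.0127), as did *Cd163* (-0.73) and *Cd300ld* (0.46). *Il1rn*, the antagonist of IL-1 receptors, was at 447, 369 and 414 in ND and 459, 574 and 623 in HFD (0.42, limma adjusted p 0.297). With array weights, where 8.56% of all genes passed, *Irf4* (-0.66), *Egr2* (0.90) and *Il1rn* (0.41) passed. Their limma adjusted p-values were 0.0158, 0.0068 and 0.035. *Cd163*, *Cd200r1*, *Cd300ld* and *Cd83* passed in that setting too.

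The mannose receptor *Mrc1*, the most abundant gene of the list, was at 23550, 23210 and 20230 in ND and 20710, 19720 and 20100 in HFD (log2 fold change -0.14, limma adjusted p 0.565). *Pparg* (0.089), *Klf4* (0.040), *Myc* (0.17) and *Cebpb* (0.10), transcription factors tied to alternative activation, had limma adjusted p-values of 0.718 to 0.959. Without HFD replicate 3 *Pparg* was at 0.0079 and *Myc* at 0.011, and without 1 other library they reached 0.14 and 0.29. Genes of the list named after their values were seen were *Cd200r1* (0.27, limma adjusted p 0.284), *Cd300ld* (0.37, 0.278) and *Clec7a* (0.19, 0.411), each higher in every HFD than in any ND library. *Cd83* (-0.38, limma adjusted p 0.361) and the scavenger receptor *Cd163* (-0.45, 0.477) overlapped. *Cd163* was -0.29 without ND replicate 1, and was at 904 and 871 in ND replicates 1 and 2 and at 494 in ND replicate 3, beside 562, 477 and 573 in HFD. Among genes tied to IL-4 above, *Clec10a* and *Irf4* had a lower and *Egr2* and *Chil3* a higher mean in HFD. None of these 4 passed the test, and *Chil3* was at 0.11 without HFD replicate 2. *Mgl2* had nearly equal means (log2 fold change -0.022). Whether genes induced by IL-4 differed between the diets as a group was not tested.

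**Figure D4:**
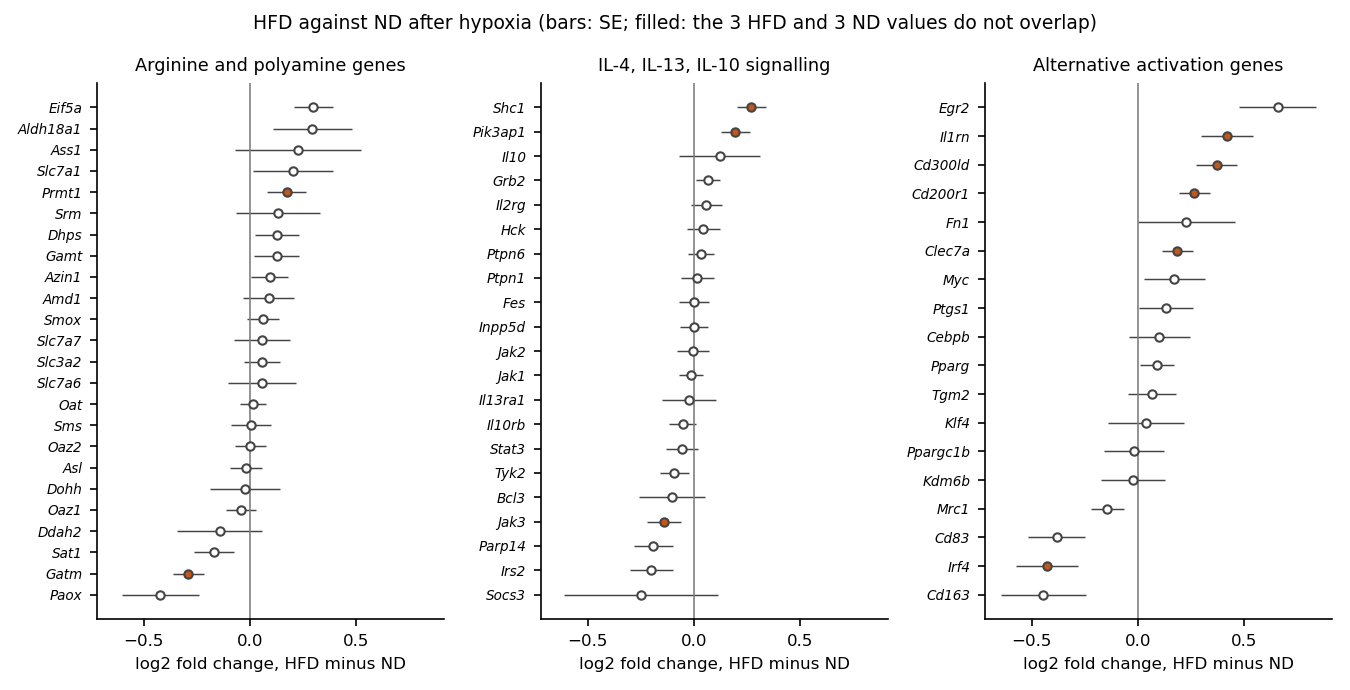
Log2 fold change, HFD minus ND (horizontal axes, bars are the SE), of the other genes of 3 lists, 24 of arginine and polyamine metabolism, 21 of cytokine signalling and 18 of alternative activation. Filled points are the genes whose HFD and ND values do not overlap, 2, 3 and 5 of them, and the alternative activation genes spread widest, from -0.45 to 0.66.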

How the data were processed

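Per the labels' protocols, 100 ng of total RNA per sample went into stranded, ribosomal RNA-depleted libraries, read as single 75-base reads. STAR, Partek and mm10 are named in the submitters' processing notes, while the annotation, counting rule and filter are not given in the sources used here. The deposited values are a signal, read from the values as estimated gene counts divided by a size factor. In each library 57.0% to 58.4% of values between 5 and 1000 were whole multiples (within 0.02) of 1 step, taken as the value of 1 read, against 3.91% to 3.98% at other steps. Because the others were not whole reads, no count test was run. Columns marked NC were taken as ND.

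Log2(value + 1) was fitted with limma 3.58.1 in R 4.3.3 (trend, two-sided) on all 13232 genes, none filtered, 3 HFD against 3 ND, checked on simulated data. The step gave the estimated reads and counting errors, which cover counting only. Fold changes understate low genes. The members and lists were chosen with earlier results of these data known, and 2 listed members are not reported here. Named by rule were the members, names fixed for each list, marker genes and the 3 genes nearest to the member with the largest change among those with a mean of 100 or more. *Gatm*, *Eif5a*, *Paox*, *Prmt1*, *Shc1*, *Pik3ap1*, *Jak3*, *Cd200r1*, *Cd300ld*, *Clec7a*, *Cd83*, *Cd163*, and the values of *Kit*, *Ccr3* and *Csf1r* were picked after values were seen. Gene models were GENCODE M21, promoters RefSeq (GRCm38.p6). Alternatives changed the pseudocount, filter, scaling, variance model, library weights, replicate block and libraries. Same-numbered ND and HFD libraries had residual correlations of 0.089, -0.11 and 0.027 and were not treated as pairs.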

Additional observations from a re-analysis of the deposited data

How the results depend on the processing

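None of the 8 genes passed in any setting except *Clec10a* with array weights, giving 1 (-0.61). Over all genes the count of 0 (1401 at an unadjusted p under 0.05, and 700 to 2309 without 1 library) became 1133 with array weights and 31 in the fit with a replicate block, which called none of the 8, and ran from 0 to 233 without 1 library, 233 being without ND replicate 3. The replicate numbers are not known to pair libraries. The block leaves the difference in the ratio of *Mgl2* to *Clec10a* at 0.48 by construction, so it does not bear on its stability. With array weights the arginine, signalling and alternative activation lists had 2 of 24, 3 of 21 and 7 of 18 genes passing, against 8.56% of all genes. Without 1 library they had 0 to 1, 0 to 1 and 0 to 3. The highest were each without ND replicate 3, where 1.76% of all genes passed. Why the counts over all genes and in the lists rose was not tested. The cause of the turns in sign given next was not tested either.

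Of 48 values of the 8 genes without 1 library, 43 kept their direction and 5 turned. They ran from -0.19 to 0.094 for *Mgl2*, which was 0.00014 after quantile normalization, from -0.16 to 0.039 for *Il4ra* and from -0.21 to 0.049 for *Il10ra*. Values of other named genes turned likewise: *Ass1* (-0.0070 to 0.41), *Asl* (-0.068 to 0.012), *Slc3a2* (-0.026 to 0.11), *Oaz1* (-0.082 to 0.012), *Amd1* (-0.045 to 0.22), *Srm* (-0.029 to 0.35), *Sms* (-0.075 to 0.063), *Oat* (-0.012 to 0.035), *Il13ra1* (-0.14 to 0.080), *Jak1* (-0.037 to 0.0030), *Socs3* (-0.54 to 0.055), *Stat3* (-0.11 to 0.0017), *Il10* (-0.026 to 0.24), *Klf4* (-0.14 to 0.17) and *Cebpb* (-0.019 to 0.25). *Sms* was -0.0066 with scaling to the column total and -0.014 with array weights, which gave 0.014 for *Il13ra1* and -0.0022 for *Klf4*. Low depth limits *Slc7a2*, *Ass1*, *Socs3* and *Il10*. DESeq2 and edgeR were not run, since the values are not whole counts.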

Other observations

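In the marker list for eosinophils, basophils and mast cells, 2 of 10 genes had a row, and the diets overlapped for neither, where 14.5% of all genes did not overlap. *Kit*, the receptor for stem cell factor carried by mast cells and progenitors, was at 226, 134 and 117 in ND and 73.4, 72.4 and 104 in HFD (log2 fold change -0.88, limma adjusted p 0.284). *Ccr3*, a receptor for eotaxins, was at 482, 573 and 886 in ND and 919, 1061 and 1072 in HFD (0.70, limma adjusted p 0.278), and without ND replicate 3 it passed (0.95), as 1.76% of all genes did. ND replicate 3 was the ND library nearest to HFD for both. The 3 stromal collagen genes with a row were all lower in HFD (log2 fold changes -1.45 to -1.04), with 0 passing the test. Their sum was 178 to 549 in ND and 51.8 to 337 in HFD. *Cd4*, the only lymphocyte marker of 9 with a row, was at 202 to 356 in ND and 98.1 to 230 in HFD (-0.70). Both overlapped, and their part in the values of the 8 genes was not tested.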
